A study of Homo sapiens with 4 samples.

Results

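The genes described here encode the C/EBP transcription factors CEBPA, CEBPB, CEBPD, CEBPE and CEBPG, together with CEBPZ, which carries the family's name. They were taken by symbol from the probe annotation of the array, in which each of the 6 genes had 1 probe out of 48803, and 5 of the 6 were among the 8862 named genes tested. RNA came from Mia Paca-2 cells, an established human line derived from a pancreatic carcinoma. IL-1β samples had been given interleukin 1β at 2 ng/ml for 36 h, and control samples were untreated cells of the same line. Each group held 2 samples, hybridised to 1 Illumina WG_6_V3 bead chip array each. Separate cultures are not stated in the labels. The p-values thus set the difference between groups against a spread between samples, pooled over probes, that may be only technical.

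The C/EBP proteins are basic leucine zipper factors that bind DNA as dimers with one another or with related zipper proteins. CEBPB and CEBPD are known as mediators of the acute-phase response to IL-1 and IL-6, CEBPA as a factor of differentiation that restrains proliferation in liver, fat and myeloid cells, and CEBPE as a factor of late granulocyte maturation. CEBPG has no strong activation domain of its own and acts as a dimer partner, and CEBPZ is not a zipper protein but the human relative of a yeast factor of ribosome assembly.

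IL-1β samples had a higher mean than control samples at each of the 5 detected C/EBP probes, by amounts from 1.02-fold for CEBPB to 1.29-fold for CEBPD, and 49.7% of all tested probes were higher in mean. None passed an adjusted p of 0.05 in limma, where 0 of 13152 tested probes passed (0%) and 2437 had an unadjusted p under 0.05 (18.5%), so no C/EBP gene is called as changed. At an unadjusted p under 0.05 in limma, CEBPD and CEBPA were higher, 2 of the 5 probes, where 9.25% of all tested probes were higher at that level. In CEBPD, CEBPA and CEBPG both IL-1β arrays lay above both control arrays, 3 of the 5, and none of the 5 was lower without overlap. Of all tested probes 25.5% were higher and 25.2% lower without overlap, 50.7% in all. No C/EBP probe was both apart and at least 1.5-fold different, as 3.05% of tested probes were. The median log2 difference over the 5 probes was 0.16, and that over all tested probes was -0.00.

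The arrays differed in brightness, which bears on every raw value below. Mean raw intensity was 482 and 449 on the IL-1β arrays and 527 and 549 on the control arrays, and 26.1% to 27.0% of probes were detected per array, meaning a detection p under 0.01. Values called log2 intensities are background-corrected and quantile-normalised. Of the markers of the line, KRT8 and KRT18, keratins of simple epithelium, and VIM, the mesenchymal filament vimentin, were detected on all 4 arrays, and CDKN2A, known to be deleted in this line, was detected on none. The ductal markers KRT19 and MUC1 were detected on all 4 arrays, and EPCAM, CDH1 and the acinar genes PRSS1, CPA1 and AMY2A on none. The detected epithelial markers were lower with IL-1β without overlap, as 25.2% of all tested probes were. The differences were -0.21 ± 0.11 for KRT8, -0.24 ± 0.10 for KRT18, -0.20 ± 0.12 for KRT19 and -0.18 ± 0.12 for MUC1 (log2, SE). None passed the threshold, with adjusted p from 0.269 to 0.482 in limma, and VIM was at 0.00 ± 0.09. Of 5 leukocyte markers with a probe, PTPRC, CD3E and LYZ were at background on all arrays, CD14 was detected on 1 array of each group and CD68 on all 4. The summed raw intensity of the leukocyte probes was 5505 and 5134 on IL-1β arrays and 5324 and 5792 on control arrays, and the groups overlapped. Raw sums are not corrected for the lower brightness of the IL-1β arrays, so this overlap does not show equal levels. CD68 itself was higher by 0.31 ± 0.10 (log2, SE). Of 4 fibroblast markers COL1A2 was detected on all arrays and COL1A1, DCN and LUM on none. The summed raw intensity of the fibroblast probes was 5232 and 4818 on IL-1β arrays and 6686 and 7178 on control arrays. It was lower with IL-1β before any correction for brightness. The part of these markers in the C/EBP values was not tested.

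CEBPD encodes C/EBP delta, a factor normally low in resting cells and induced by inflammatory cytokines. Its probe had log2 intensities of 11.03 and 10.84 on the IL-1β arrays and 10.53 and 10.61 on the control arrays. Both IL-1β arrays were above both control arrays, and the smallest gap between the groups was 0.23 on the log2 scale. The difference was 0.37 ± 0.11 (log2, SE), a fold of 1.29 with a 95% confidence interval of 1.07 to 1.56 (adjusted p = 0.189 in limma, n = 2 each). Of all tested probes, 12.1% had a difference of larger size.

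The separation in CEBPD appeared after scaling and not in the raw signal. Raw intensities were 2084 and 1706 on IL-1β arrays and 1755 and 1933 on control arrays, so the groups overlapped. In the authors' series matrix, where each array was brought to the same mean, the values were 1921 and 1671 on IL-1β arrays and 1395 and 1489 on control arrays, with no overlap. CEBPD was past the threshold in 2 alternative settings, with adjusted p = 0.0372 in limma when the background was left uncorrected, and 0.0215 when eBayes was run with an intensity trend and robust variance pooling. In those settings 622 and 728 of the 13152 tested probes passed, against 0 as reported.

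CEBPA encodes C/EBP alpha. Its probe had log2 intensities of 8.75 and 8.83 on IL-1β arrays and 8.52 and 8.49 on control arrays. Arrays of each group lay close together and the groups did not overlap, with a gap of 0.23. The difference was 0.28 ± 0.09 (log2, SE), a fold of 1.22 (95% confidence interval 1.03 to 1.43; adjusted p = 0.214 in limma). Raw intensities were 538 and 515 on IL-1β arrays and 536 and 571 on control arrays, which overlap, while the authors' series matrix values were 378 and 393 against 330.1 and 340.3 in controls, which do not.

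**Figure D1:**
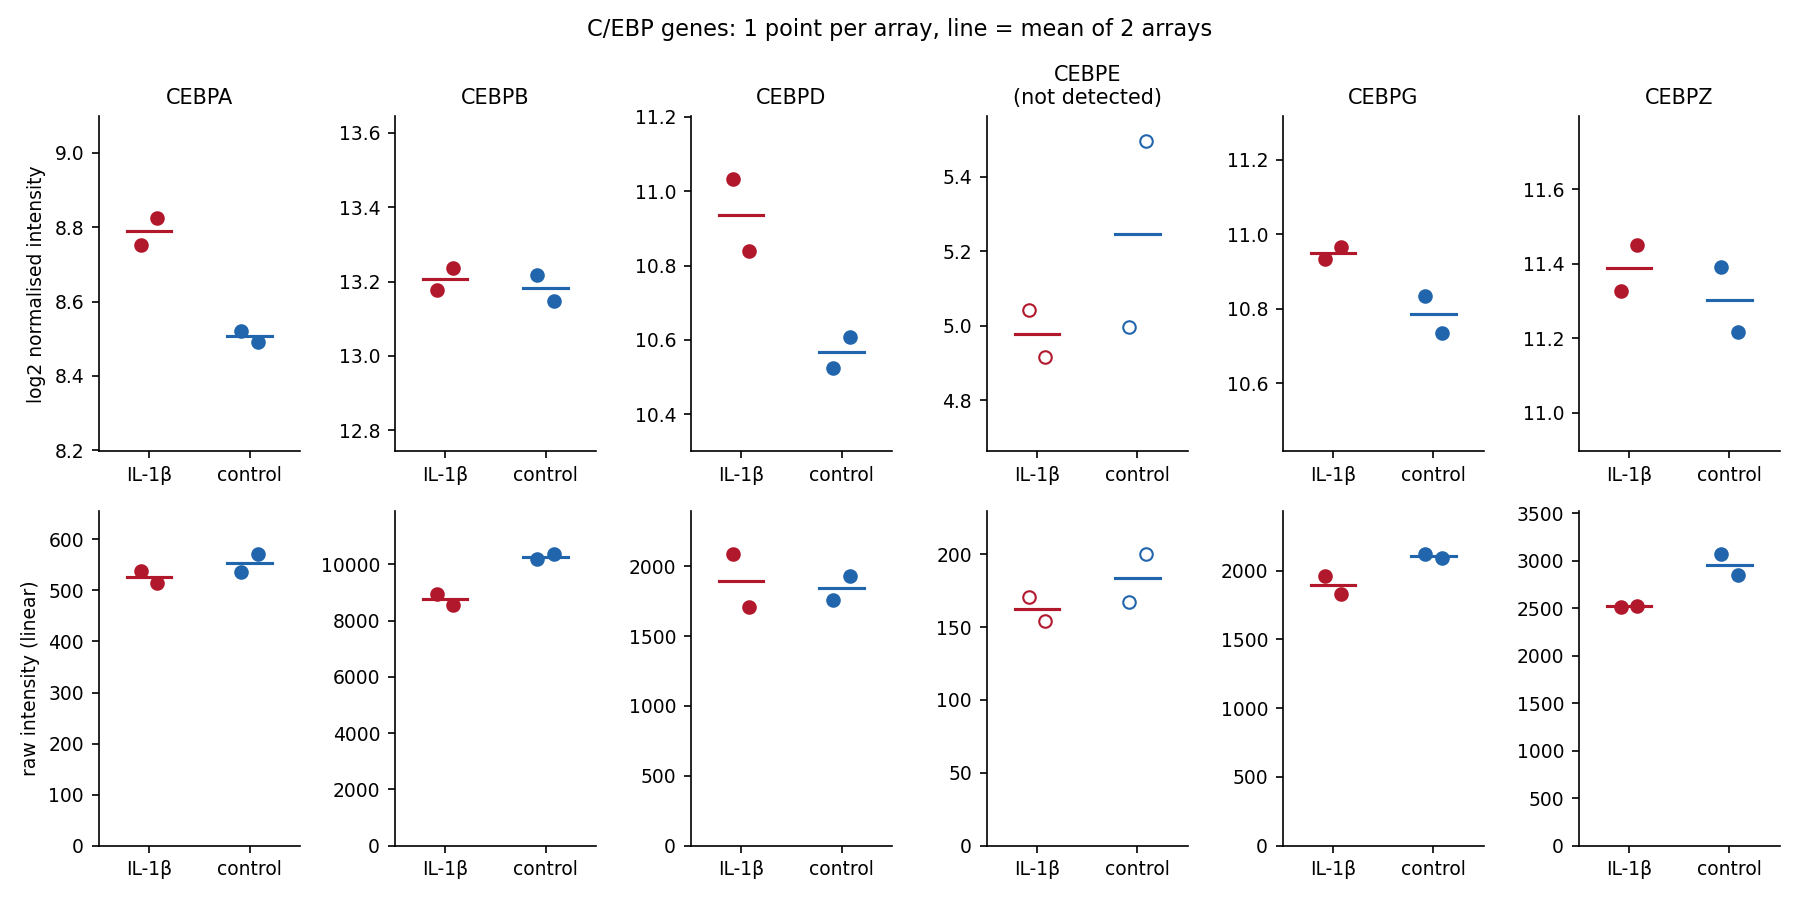
Each column is a C/EBP gene with 1 point per array, IL-1β left and control right, and a line at the mean of the 2 arrays; the upper row gives log2 normalised intensity on axes of equal span and the lower row raw intensity from 0. Groups are apart in the upper row for CEBPA, CEBPD and CEBPG, while in the lower row the IL-1β arrays are below the controls for CEBPB, CEBPG and CEBPZ; open points mark CEBPE, which was not detected.

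CEBPG encodes C/EBP gamma. Log2 intensities were 10.93 and 10.96 on IL-1β arrays and 10.83 and 10.74 on control arrays, with no overlap and a smallest gap of 0.10. The difference was 0.16 ± 0.10 (log2, SE), a fold of 1.12 (0.949 to 1.32; adjusted p = 0.423 in limma). Before normalisation the order was the other way: raw intensities were 1963 and 1834 on IL-1β arrays and 2118 and 2089 on control arrays, so both IL-1β arrays were lower. Scaling all arrays to one median over all probes likewise gave -0.04 for CEBPG, while the median of all tested probes moved to -0.22 under that scaling.

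CEBPB encodes C/EBP beta, the factor first described as NF-IL6 from its binding to the IL6 promoter. Log2 intensities were 13.18 and 13.24 on IL-1β arrays and 13.22 and 13.15 on control arrays, and the groups overlapped. The difference was 0.02 ± 0.10 (log2, SE), a fold of 1.02 (adjusted p = 0.924 in limma). Its 95% confidence interval of 0.862 to 1.20 lay within 1.5-fold either way for the arrays measured. Whether the samples of a group were separate cultures is unknown, so a CEBPB change of 1.5-fold in the cells is not excluded. Raw intensities were 8931 and 8571 on IL-1β arrays and 10199.8 and 10354 on control arrays, lower with IL-1β, while the authors' series matrix values of 8755 and 9031 with IL-1β overlapped those of 8774 and 8589.9 in controls. The sign of the CEBPB difference turned with 2 of the scalings, to -0.12 with median scaling over all probes and -0.02 with the factors of the authors' table of averages.

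CEBPZ had log2 intensities of 11.33 and 11.45 on IL-1β arrays and 11.39 and 11.22 on control arrays, which overlap. The difference was 0.09 ± 0.11 (log2, SE), a fold of 1.06 (0.876 to 1.29; adjusted p = 0.730 in limma), and it was -0.12 and -0.02 under the scalings that turned CEBPB. CEBPE was not detected on any array. Its detection p was 0.157 and 0.267 on IL-1β arrays and 0.161 and 0.0343 on control arrays, with raw intensities of 170.3 and 154 on IL-1β arrays and 167 and 199.9 on control arrays, so no fold is given for it.

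**Figure D2:**
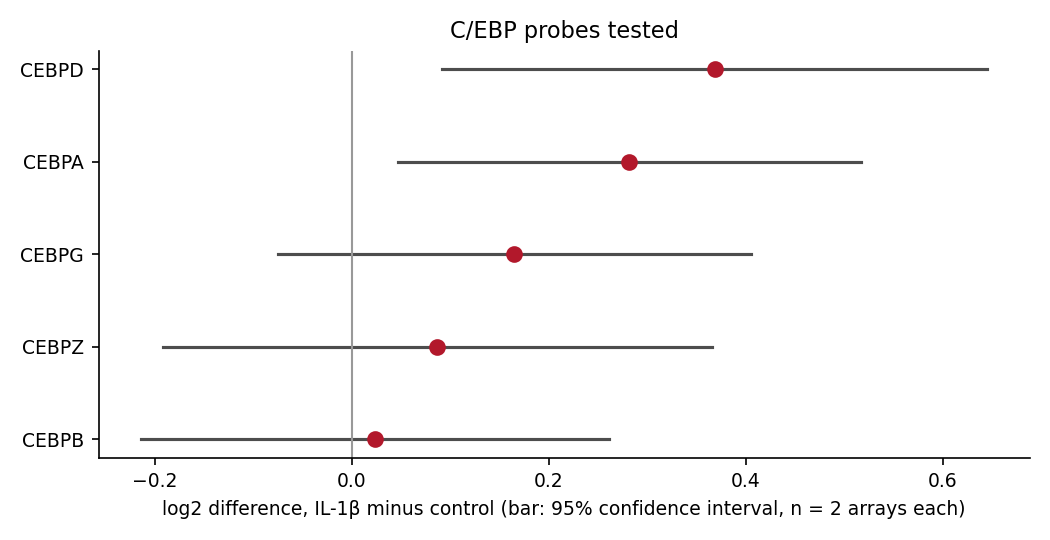
Points give the log2 difference, IL-1β minus control, of the 5 detected C/EBP probes and bars the 95% confidence interval from limma (2 arrays per group). The intervals of CEBPD (0.09 to 0.65) and CEBPA (0.05 to 0.52) lie above 0, without adjustment for the number of probes, and those of CEBPG, CEBPZ and CEBPB include 0.

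Because scaling by 1 factor moves all probes of an array together, the C/EBP probes were also placed relative to the median of all tested probes. Background subtraction and quantile normalisation move probes by unequal amounts, so these distances can differ between settings. CEBPD was above the median of all tested probes by 0.37 as reported, 0.39 in the authors' series matrix values, 0.29 with the factors of their table of averages and 0.37 with either median scaling. CEBPA was above that median by 0.28, 0.28, 0.18 and 0.27 in the same settings. For CEBPB the distance was 0.02, 0.11, 0.02 and 0.10. Both median scalings shift an array by a constant, so each distance is the same in both by construction. The difference of CEBPD was 0.27 without IL-1β replicate 1 and 0.47 without IL-1β replicate 2, positive in each of 16 alternative settings. That of CEBPA was likewise positive in each of the 16, from 0.05 to 0.32. Settings that changed only the probe filter, the variance pooling or the replicate block left both differences as reported. Leaving out 1 array could not turn the sign either, because the groups were apart. The sign could thus differ only under another background correction or scaling, where it stayed positive.

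**Figure D3:**
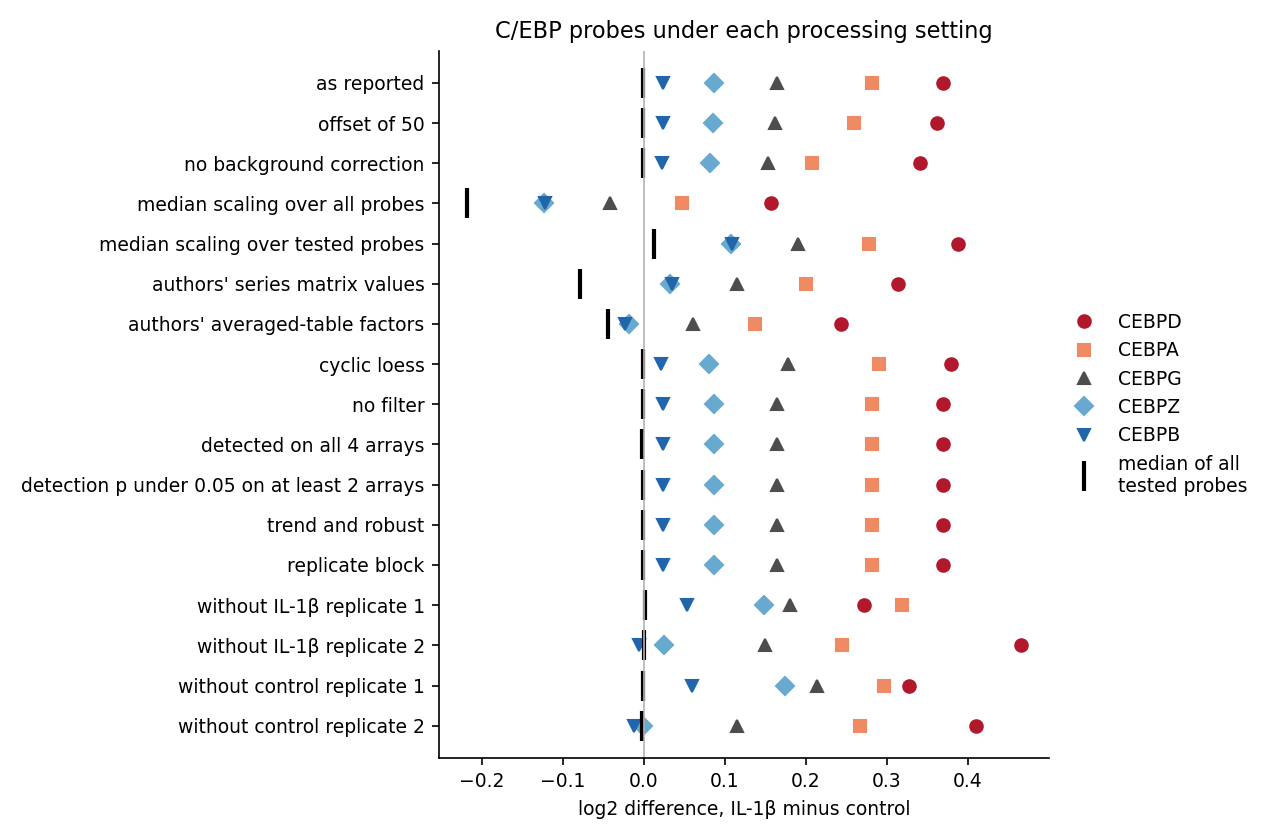
Rows are processing settings, the first as reported, and the horizontal axis is the log2 difference, IL-1β minus control; coloured symbols are the C/EBP probes and black bars the median of all tested probes. CEBPD is right of 0 in every row and is the highest of the 5 in all rows but that without IL-1β replicate 1, where CEBPA is at 0.32, and median scaling over all probes moves every symbol left, together with the median at -0.22.

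No C/EBP probe was among the 1464 probes of the authors' deposited table of averages, and no C/EBP symbol was among the 1440 rows of the authors' deposited table of scores.

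The array profile of CEBPD was compared with those of other genes after each probe was centred on its own mean over the 4 arrays. Among 11227 tested probes with a gene name, the closest in root mean square distance were PSMB9, an immunoproteasome subunit (0.016 on the log2 scale), TBX2, a T-box transcription factor (0.021), and TNFSF9, the ligand of 4-1BB (0.021). PSMB9 had log2 intensities of 8.20 and 8.05 on IL-1β arrays and 7.73 and 7.80 on control arrays, higher without overlap as in CEBPD. With 4 arrays in 2 groups such likeness is easily met, and 646 of these probes lay within 0.1 of CEBPD. CEBPA was at a distance of 0.11, CEBPG at 0.14, and CEBPB and CEBPZ at 0.20.

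The regions around the start sites are given for the genes of 3 contrasting patterns: CEBPA, with groups apart, CEBPB, with groups overlapping, and CEBPZ, which has a start region in common with its neighbour. Windows of 250 bases before to 50 after the start come from RefSeq (GRCh38.p14). Those of CEBPA, CEBPB, CEBPE, CEBPG and CEBPZ, 5 of the 6 genes, were searched, with 2 windows each for CEBPB and CEBPG, and CEBPD was not searched here; of CEBPB the window with TATAAA is shown. Capitals mark matches on either strand to the letters searched, which were TTGCNNAA for C/EBP, TTCNNNGAA for STAT, TGACG for the core of the cyclic AMP response element, CCAAT for the CCAAT box, TATAAA for the TATA box, and the degenerate κB consensus of NF-κB. The letters searched do not overlap one another in the windows shown, except that the κB consensus matched CEBPB at 2 positions 1 base apart.
CEBPA, chr19:33302485-33302784, minus strand: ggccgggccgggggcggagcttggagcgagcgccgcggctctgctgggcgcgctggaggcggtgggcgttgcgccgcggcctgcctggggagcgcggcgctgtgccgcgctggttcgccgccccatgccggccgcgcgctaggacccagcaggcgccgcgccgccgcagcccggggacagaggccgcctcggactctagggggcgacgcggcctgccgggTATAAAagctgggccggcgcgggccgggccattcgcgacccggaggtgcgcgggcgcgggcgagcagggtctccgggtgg
CEBPB, chr20:50190580-50190879, plus strand: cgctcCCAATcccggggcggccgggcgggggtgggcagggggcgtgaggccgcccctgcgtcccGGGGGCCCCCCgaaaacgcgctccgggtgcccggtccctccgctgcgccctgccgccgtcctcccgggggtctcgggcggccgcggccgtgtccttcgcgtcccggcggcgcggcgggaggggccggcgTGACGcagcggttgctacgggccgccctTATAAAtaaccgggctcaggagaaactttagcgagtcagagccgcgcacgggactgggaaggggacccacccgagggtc
CEBPZ, chr2:37231547-37231846, minus strand: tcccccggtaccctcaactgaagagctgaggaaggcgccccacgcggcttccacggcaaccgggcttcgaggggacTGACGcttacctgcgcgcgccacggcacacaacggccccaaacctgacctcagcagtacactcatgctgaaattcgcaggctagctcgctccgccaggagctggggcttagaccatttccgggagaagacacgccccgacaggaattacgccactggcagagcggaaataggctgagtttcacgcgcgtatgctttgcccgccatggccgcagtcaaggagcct

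CEBPA held TATAAA 30 bases before its start. CEBPB held TATAAA 29 bases and TGACG 57 bases before its start, and its CCAAT lay 245 bases before it. CEBPZ held TGACG 174 bases before its start and no TATAAA. Among all 35116 windows of this length, 11.5% held TATAAA, 24.6% TGACG and 34.6% CCAAT. The C/EBP letters were in 10.5% of all windows and those of STAT in 7.66%, and neither stood in the windows printed. The κB consensus was in 11.3% of all windows and matched CEBPB 186 and 185 bases before its start, in a run of G and C. The window of CEBPE, not printed, held the κB consensus 186 bases and the STAT letters 242 bases before its start. In the first window of CEBPG, also not printed, CCAAT was matched 85 and 24 bases before the start, and the second held no match. A narrower κB form, searched first, was in 1.91% of all windows and in none of the 7 windows of these 5 genes. GC content was 80.7% for CEBPA, 76.7% for CEBPB and 62.7% for CEBPZ, against a median of 58.7% over all windows. A match is a description of letters and not of a bound site.

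The window of CEBPZ shares 161 bases with that of NDUFAF7, a mitochondrial methyltransferase needed for assembly of respiratory complex I, which is transcribed from the opposite strand. NDUFAF7 had log2 intensities of 9.64 and 9.62 on IL-1β arrays and 9.64 and 9.68 on control arrays. Its difference was -0.03 ± 0.09 (log2, SE; adjusted p = 0.900 in limma), and its groups overlapped like those of CEBPZ. CEBPA and CEBPG are each other's next coding gene on chromosome 19, and both were higher without overlap, as 25.5% of all tested probes were. On the other side of CEBPG, PEPD, the dipeptidase prolidase, differed by -0.08 ± 0.09 and was lower without overlap. SPIDR, the coding gene nearest CEBPD at 607 bases, had no probe. PRKDC, the catalytic subunit of DNA-dependent protein kinase, lies on the other side of CEBPD at 34947 bases. It differed by -0.45 ± 0.12 and was lower without overlap (adjusted p = 0.172 in limma). PTPN1 and PEDS1-UBE2V1, on either side of CEBPB at 317693 and 36860 bases, differed by 0.11 ± 0.11 and 0.05 ± 0.15, with groups overlapping. Each neighbour is read by its tested probe of highest mean. These neighbours were looked at after the values of the C/EBP genes were known.

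Genes around the C/EBP factors were taken from lists of partners, regulators and known targets. These lists were chosen with earlier results of these data known, so their counts are no independent test. No list member passed an adjusted p of 0.05 in limma. Counts below are at an unadjusted p under 0.05 in limma, where 9.25% of all tested probes were higher and 9.28% lower. Each gene is read by its tested probe of highest mean. The median log2 difference over all tested genes was 0.00.

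Of 10 zipper factors that pair with C/EBP proteins or are related to them, 8 were tested, and at that level they included 1 higher and 1 lower gene; their median was 0.01. ATF5, an activator of stress responses, had log2 intensities of 12.29 and 12.39 on IL-1β arrays and 12.06 and 12.05 on control arrays, 1.22-fold higher (adjusted p = 0.217 in limma). NFIL3, a repressor of circadian and immune genes, had 8.20 and 8.21 on IL-1β arrays and 8.41 and 8.49 on control arrays, 0.846-fold (adjusted p = 0.264 in limma). DDIT3, known as CHOP, which dimerises with C/EBP proteins under endoplasmic reticulum stress, differed by 0.11 ± 0.10. TEF differed by 0.20 ± 0.14, BATF3 by -0.12 ± 0.17 and DBP by -0.08 ± 0.12, while HLF and BATF were not detected on any array.

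Of 17 regulators of C/EBP level or activity, 13 were tested, of which 2 were on the higher and 1 on the lower side at that level, and their median was -0.01. The 2 were TRIB1 and TRIB2, pseudokinases that bring C/EBP alpha to the ubiquitin ligase COP1 for degradation. TRIB2 had log2 intensities of 9.94 and 10.06 on IL-1β arrays and 9.34 and 9.49 on control arrays. TRIB1 had 9.56 and 9.69 on IL-1β arrays and 9.08 and 9.16 on control arrays. In both genes the groups were apart, with folds of 1.502 (1.25 to 1.81) for TRIB2 and 1.43 (1.19 to 1.70) for TRIB1, and adjusted p = 0.110 and 0.114 in limma. Each was positive in all 16 alternative settings, of which only those with another background correction or scaling could turn the sign. Each was past the threshold in 3 of the 16. Over these settings the number of all tested probes past it ran from 0 to 1097.

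Their paralog TRIB3 differed by -0.05 ± 0.09, and COP1 by -0.12 ± 0.09. CELF1, an RNA-binding protein known to act on translation of C/EBP messages, had log2 intensities of 7.52 and 7.24 on IL-1β arrays and 7.81 and 7.75 on control arrays, 0.759-fold (adjusted p = 0.201 in limma), and its other tested probe was at -0.31. STAT3, which relays IL-6 signals to CEBPD in many cells, differed by 0.13 ± 0.13, and IL6ST, the shared receptor subunit gp130, by -0.20 ± 0.12. RPS6KA1, a kinase of the RSK family, differed by 0.18 ± 0.09 and the kinase GSK3B by -0.22 ± 0.11. IL6R, KLF5 and E2F1 were not detected on any array, and EIF2AK3 was detected on 1.

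Of 27 inflammatory and acute-phase genes known as C/EBP targets, 10 were tested, and 4 of them were higher at that level and 0 lower; the median of the 10 was 0.20. CFB, complement factor B, was 2.15-fold higher, LCN2, the iron-sequestering lipocalin 2, 1.77-fold, CSF3, the granulocyte colony-stimulating factor, 1.58-fold and TNF 1.39-fold, with adjusted p from 0.0774 to 0.135 in limma. LCN2 had log2 intensities of 12.73 and 12.69 on IL-1β arrays and 11.81 and 11.97 on control arrays, and in each of the 4 genes the groups were apart. Of the 16 alternative settings, CFB and LCN2 were past the threshold in 6, CSF3 in 5 and TNF in 2. Over these settings the number of all tested probes past it ran from 0 to 1097. The other tested probe of CSF3 was at 0.26. C3, detected on 1 of the 2 IL-1β arrays, differed by -0.17 ± 0.20, CXCL8 by -0.00 ± 0.09 and CXCL1 by -0.00 ± 0.11. The other 17 genes of the list were not detected on any array. They were the liver acute-phase genes SAA1, SAA2, SAA4, ORM1, ORM2, HP, CRP, CP, SERPINA1 and HAMP, and IL6, IL1B, CCL2, PTGS2, NOS2, S100A8 and S100A9.

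Of 12 metabolic and adipocyte targets, 4 were tested, with 1 higher and 0 lower at that level and a median of 0.02. PPARG, the nuclear receptor of fat cell differentiation, had log2 intensities of 8.14 and 8.15 on IL-1β arrays and 7.93 and 7.89 on control arrays, 1.17-fold higher (adjusted p = 0.268 in limma), and its sign turned with median scaling over all probes. SCD differed by 0.04 ± 0.09, LEP by 0.00 ± 0.21 and LPIN1 by -0.08 ± 0.09. FABP4, ADIPOQ, PCK1, G6PC1, INSR, SLC2A4, LPL and RETN were not detected on any array.

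Of 9 granulocyte targets, LCN2 and AZU1 were tested, and ELANE, MPO, CSF3R, LTF, CAMP, PRTN3 and MS4A3 were not detected on any array. AZU1, the granule protein azurocidin, was detected on both IL-1β arrays and on neither control array. Its log2 intensities were 6.58 and 6.34 on IL-1β arrays and 5.46 and 5.72 on control arrays. It was 1.25-fold higher with IL-1β when the control level was taken, per array, as the lowest signal among detected probes after background correction. Its fitted fold with no background correction was 1.21, so 1.25 is not a lower bound under every processing. It entered the test only through the IL-1β arrays, so no p is given for it. The leukocyte gene PTPRC was at background on all arrays.

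Of 14 ribosome assembly genes that work beside CEBPZ, 13 were tested, with 0 higher and 0 lower at that level and a median of -0.03. NOC4L differed by 0.43 ± 0.23, and its other tested probe was at -0.52. RRP1B differed by 0.08 ± 0.14, NPM1 by 0.07 ± 0.11, WDR12 by -0.14 ± 0.09, NOC2L by -0.09 ± 0.15 and NOP58 by -0.07 ± 0.10, and RRP1 was not detected on any array.

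**Figure D4:**
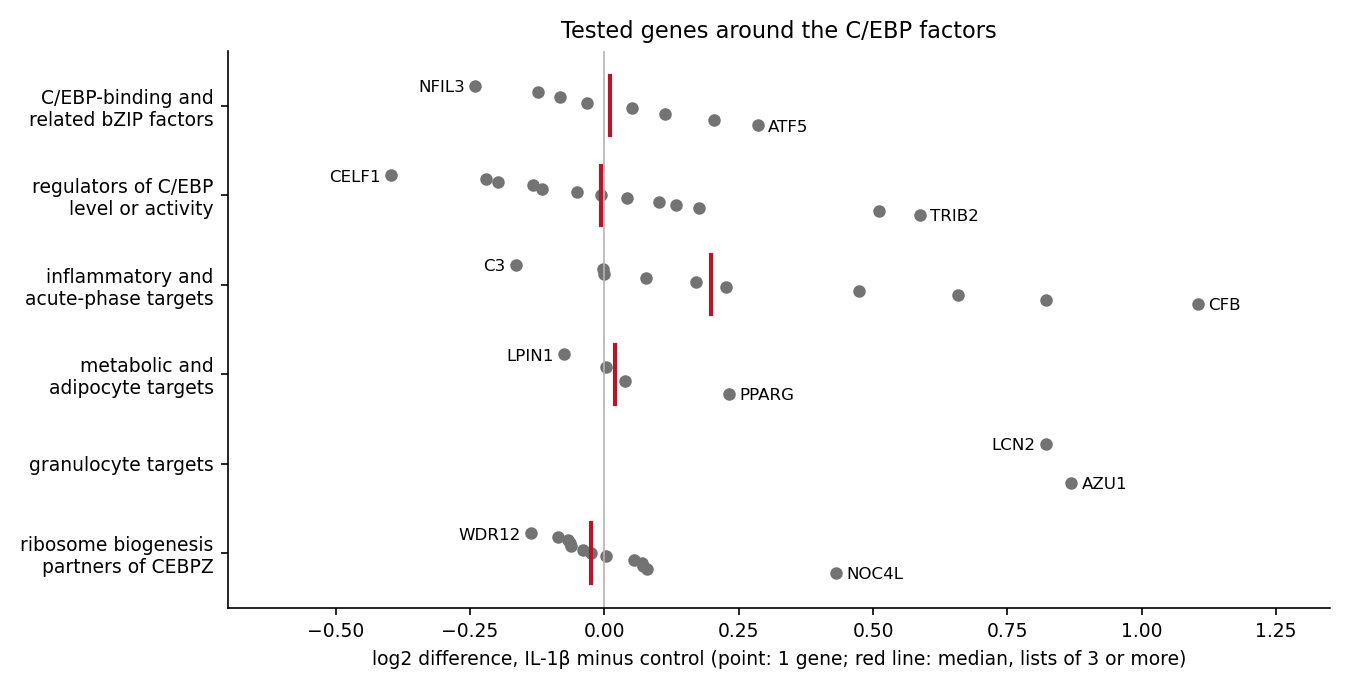
Each point is a tested gene, placed by its log2 difference, IL-1β minus control, in rows for the 6 lists; a red line marks the median of lists with 3 or more tested genes, and the outermost genes are named. The inflammatory and acute-phase targets have a median of 0.20 and reach CFB at 1.10, while the ribosome assembly genes other than NOC4L lie between -0.14 and 0.08; the fitted value of AZU1 is drawn, whose control arrays were not above background.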

How the data were processed

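RNA from 2 IL-1β and 2 untreated samples was measured on 1 array each, which limits the precision of every value. The authors deposited raw linear intensities for each probe, from which no background had been taken. Detection p-values accompany them on every array, per the file headers. In the deposited series matrix, the authors' intensities had 1 constant per array subtracted and 1 factor applied, as read from the values. The authors' deposited table of averages holds intensities multiplied by 1 factor per array and averaged. The authors' deposited score table gives no formula. No software for these steps is named in the sources used here.

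Background correction and quantile normalisation used neqc (offset 16, then log2). The package was limma 3.58.1, run under R 4.3.3. The 13152 of 48803 probes that 2 or more arrays detected (p under 0.01) were tested with lmFit and eBayes, two-sided, and Benjamini-Hochberg adjustment over all of them at a threshold of 0.05. The fit was tested on simulated data. Probe names came from the array's gene table, in which 27578 probes have 1 gene, 13 several and 21212 none listed.

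All members are named. Of each list, the rule names up to 3 genes per direction by size of difference and those not detected; TNF, STAT3, TRIB3, COP1 and the neighbours of the C/EBP genes were added after their values were seen. Members and lists were chosen with earlier results of these data known. The κB consensus replaced a narrower form after that form had been searched; both results are given.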

Additional observations from a re-analysis of the deposited data

How the results depend on the processing

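With 2 arrays per group, and a median SE of 0.11 for a log2 difference, none of the 5 C/EBP probes passed as reported. Differences as small as those of CEBPG, CEBPZ and CEBPB could not be told from 0. The differences of CEBPA and CEBPD were positive in all 16 alternatives, of which only those with another background correction or scaling could turn the sign. CEBPA passed in none. CEBPD passed at 0.34 with no background correction and at 0.37 with trend and robust settings, which gives 1 C/EBP probe past the threshold in each, and 0 in the other 14. With median scaling over all probes the differences were -0.12 for CEBPB, -0.041 for CEBPG and -0.12 for CEBPZ, and with the authors' averaged-table factors -0.023 for CEBPB and -0.019 for CEBPZ. Leaving out 1 array at a time gave 0.27 to 0.47 for CEBPD, 0.25 to 0.32 for CEBPA, 0.12 to 0.21 for CEBPG, -0.00029 to 0.17 for CEBPZ and -0.012 to 0.059 for CEBPB. The negative values were -0.00029 for CEBPZ without control replicate 2, and for CEBPB -0.0060 without IL-1β replicate 2 and -0.012 without control replicate 2.

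Of all tested probes, 0 passed as reported, 91 with an offset of 50, 622 with no background correction, 919 with median scaling over all probes, 10 with median scaling over tested probes, 1097 with the authors' averaged-table factors, 66 with detection on all 4 arrays, 728 with trend and robust settings and 0 in the others run, and 0 without any 1 array. At an unadjusted p under 0.05 in limma there were 2437 of 13152 as reported, and 4488 under median scaling over all probes. With no filter there were 4277, out of all 48803 probes on the array. Of all tested probes 50.3% were lower as reported, 83.4% with median scaling over all probes, 64.3% when the series matrix was used and 61.3% with their averaged-table factors.

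List medians moved by more than the spread between replicates in some settings. With median scaling over all probes they were -0.14 for zipper factors, -0.22 for regulators, 0.089 for inflammatory targets, -0.12 for metabolic targets and -0.23 for ribosome assembly genes. Of 49 tested list genes, 27 were positive as reported, and 15 of these were negative under that scaling, among them DDIT3, TEF, STAT3, RPS6KA1, PPARG, LEP and RRP1B of those named. With median scaling over tested probes they were 0.090 for zipper factors, 0.32 for inflammatory targets and 0.11 for metabolic targets. The authors' averaged-table factors gave -0.075 for regulators and 0.17 for inflammatory targets, and their series matrix values gave 0.24 for inflammatory targets and -0.078 for ribosome assembly genes. Inflammatory targets were at 0.16 with no background correction, 0.26 with cyclic loess and 0.23 with detection on all 4 arrays. Without 1 array the medians ran from -0.0025 to 0.079 for zipper factors, -0.076 to 0.094 for regulators, 0.13 to 0.31 for inflammatory targets, -0.024 to 0.14 for metabolic targets and -0.018 to 0.011 for ribosome assembly genes. The cause of these moves was not tested.

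The labels do not state that equal replicate numbers pair samples, and the deviations of same-numbered arrays from their group means had a correlation of -0.09 over tested probes. With the replicate block 0 probes passed, and CEBPD was at 0.37 with adjusted p = 0.294 in limma.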
